A study of Mus musculus with 6 samples.

Results

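The Gimap genes encode GTPases of immunity-associated proteins, a family of GTP-binding proteins that lie together in 1 cluster of the mouse genome. Described here are 10 genes of this cluster as measured in mouse leukaemia cells: Gimap1, Gimap3, Gimap4, Gimap5, Gimap6, Gimap7, Gimap8 and Gimap9, and the neighbouring membrane protein genes Tmem176a and Tmem176b. All 10 were found among the 19938 genes measured, each by 1 probe set with a single gene symbol. The genes were chosen by family and position with their KO minus WT differences on these same arrays known, so the differences of the 10 genes are given as a description, without p-values.

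The RNA came from BCR-ABL1 transformed pre-B cells, a model of acute lymphoblastic leukaemia in which the BCR-ABL1 fusion kinase drives the cells. Of the 6 arrays, 3 held cells labelled Dusp6 KO and 3 held cells labelled Dusp6 WT. Both genotypes carried BCR-ABL1 and both had the strain label C57Bl/6-SV129j. Dusp6 is a phosphatase that inactivates the kinase ERK, and the study compared transformed cells with and without it. The age of the mice, the deleted part of Dusp6 and the number of mice or cultures behind the arrays are not stated in the labels. The spread between arrays may therefore be technical, and p-values measure only that spread.

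GIMAP proteins are found mainly in lymphocytes, where most of them sit on membranes of intracellular organelles. Several act in the survival of lymphocytes: mice without Gimap5 or Gimap1 have fewer mature T cells, and the loss of Gimap1 also depletes mature B cells. Mouse Gimap3 was first cloned under the name Ian4 as a transcript induced by BCR-ABL in a myeloid cell line. Tmem176a and Tmem176b encode membrane proteins related to the MS4A family and are best known from dendritic cells and other myeloid cells.

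Dusp6 served as the check of the labels. Its log2 signal was 9.04, 9.06 and 9.15 on the Dusp6 KO arrays, against 12.36, 12.46 and 12.49 on the Dusp6 WT arrays, or 10.3-fold lower in KO cells (limma adjusted p = 4.3e-10). The KO signals of Dusp6 still lay above the 95th percentile of olfactory receptor genes (7.91 to 7.98), used here as background. The source of this remaining signal was not tested. Over all genes, 1926 were called higher and 2028 lower in KO cells at a limma adjusted p under 0.05. Between 2 arrays, the correlation of all signals was 0.987 to 0.989 across genotypes and 0.996 to 0.998 within one. Of 14 measured B cell precursor markers, 14 were above background, as judged by olfactory receptor genes, on all 6 arrays, among them Cd79a, Pax5, Ebf1 and Igll1.

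The upstream sequences of the 3 adjacent genes Gimap4, Gimap6 and Gimap7 are shown because these genes had the largest differences of the Gimap genes, and that of Gimap8 because it had the smallest. The stretch between Tmem176a and Tmem176b is shown because these neighbours are transcribed away from each other and both had large differences. The sequences are from RefSeq (GRCm38.p6), cover the 250 bases before the annotated start and are written 5′ to 3′ on the strand of the gene. For the Tmem176 pair they cover the 108 bases between the nearest starts, on the strand of Tmem176a. Capitals mark matches to any of the 6 motifs named in the next paragraph, on either strand.
Gimap4 (chr6:48684328-48684577, plus strand): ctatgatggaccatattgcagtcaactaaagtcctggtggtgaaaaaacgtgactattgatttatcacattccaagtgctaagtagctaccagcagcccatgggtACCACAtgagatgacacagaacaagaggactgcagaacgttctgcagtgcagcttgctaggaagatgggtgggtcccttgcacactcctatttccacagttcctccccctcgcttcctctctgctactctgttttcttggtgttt
Gimap6 (chr6:48708245-48708494, minus strand): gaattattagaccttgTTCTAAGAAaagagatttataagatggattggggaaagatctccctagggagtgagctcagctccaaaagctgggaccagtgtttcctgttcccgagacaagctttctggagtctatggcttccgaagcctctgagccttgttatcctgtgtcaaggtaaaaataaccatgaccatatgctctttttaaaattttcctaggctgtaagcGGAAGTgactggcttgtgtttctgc
Gimap7 (chr6:48718371-48718620, plus strand): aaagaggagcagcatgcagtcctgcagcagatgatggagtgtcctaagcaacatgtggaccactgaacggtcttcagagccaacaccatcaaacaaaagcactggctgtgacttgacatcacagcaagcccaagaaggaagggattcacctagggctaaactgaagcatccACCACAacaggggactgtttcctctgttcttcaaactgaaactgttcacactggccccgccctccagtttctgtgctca
Gimap8 (chr6:48646984-48647233, plus strand): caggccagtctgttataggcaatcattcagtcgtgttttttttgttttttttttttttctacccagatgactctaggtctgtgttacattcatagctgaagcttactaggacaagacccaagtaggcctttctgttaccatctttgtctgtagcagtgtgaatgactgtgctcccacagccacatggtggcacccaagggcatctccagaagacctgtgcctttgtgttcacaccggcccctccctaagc
Tmem176a to Tmem176b (chr6:48841375-48841482, plus strand): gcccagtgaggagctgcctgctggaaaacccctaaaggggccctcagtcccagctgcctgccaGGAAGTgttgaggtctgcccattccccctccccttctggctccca

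The 6 motifs were searched on both strands in the 250 bases before each annotated start. The 10 genes had 14 such windows, some of which overlap, and the table as a whole had 32851. The ETS core GGAAGT was present for 4 of the 10 genes (Gimap5, Gimap6, Tmem176a and Tmem176b). By window, it was in 5 of the 14, some of them overlapping, and in 19.7% of all windows. In the Gimap6 sequence it starts 25 bases before the annotated start, and the copy between the Tmem176 genes lies in the windows of both. The RUNX motif TGTGGT, read as ACCACA on the other strand, was present for Gimap1, Gimap4 and Gimap7. It was in 3 of the 14 windows and in 14.0% of all windows. The STAT-type motif TTCNNNGAA was present for Gimap6 and for the second start of Gimap8. It was in 2 of the 14 windows and in 7.0% of all windows. The FOXO motif GTAAACA was present for Gimap3 only among the 10 genes, in 1 of the 14 windows, and in 3.2% of all windows. The AP-1 motif TGANTCA (6.7% of all windows) and the interferon-stimulated response element (3.0%) were in 0 of the 14 windows. CpG dinucleotides were few: 13 of the 14 windows held at most 3, against 37.8% of all windows, and the median window of the table held 6. Gimap9 was the exception with 8. None of the searched motifs was shared by Gimap4, Gimap6 and Gimap7.

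The signal of the 10 genes was higher on the Dusp6 KO arrays than on the Dusp6 WT arrays, and for each of the 10 every KO array lay above every WT array. The same was true of 17.3% of all genes. Of the 10 genes, 9 were called higher and 0 lower; 9.66% of all genes were called higher. Of the 10, 4 were at least 2-fold higher, as were 0.787% of all genes. These shares repeat what the choice of the genes used and are given for scale. The log2 differences (KO minus WT) ran from 0.15 to 1.82 with a median of 0.80, against a median of 0.0018 and quartiles of −0.071 and 0.071 over all genes. Standard errors of the 10 differences were 0.042 to 0.064, and the standard deviation within a genotype was 0.012 to 0.12.

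**Figure D1:**
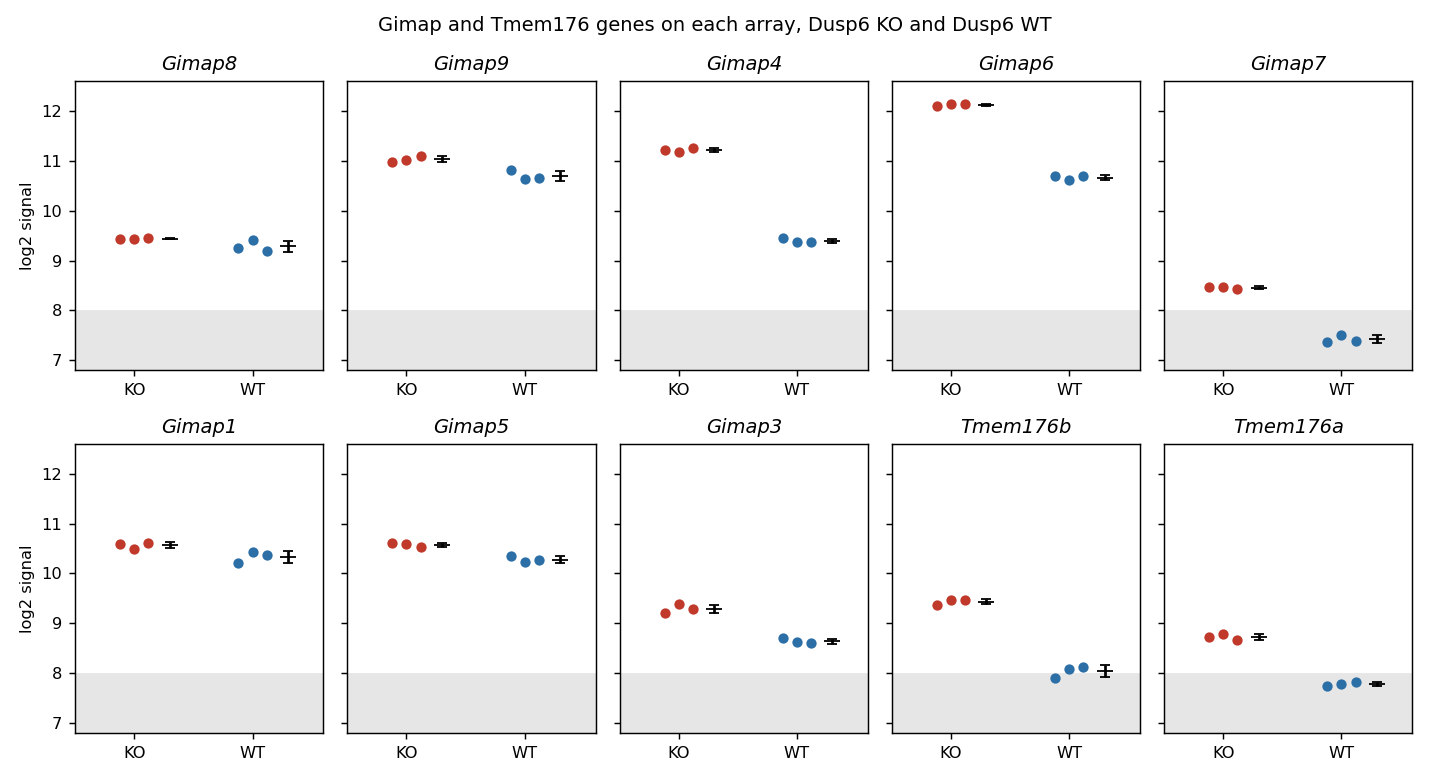
Log2 signal (y axis) of the 10 genes on each array, with Dusp6 KO left (red) and Dusp6 WT right (blue); bars give the mean and standard deviation over 3 arrays, and the grey band covers signals at or below 7.98, the highest 95th percentile of olfactory receptor genes on any array. Every KO point lies above every WT point of the same gene, by the most in Gimap4 and by the least in Gimap8.

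Gimap4, which in mice affects how fast T cells complete apoptosis, had the largest difference of the 10 genes. Its log2 signal was 11.22, 11.17 and 11.26 on the KO arrays, against 9.45, 9.37 and 9.38 on the WT arrays. The lowest KO array exceeded the highest WT array by 1.72. The mean was 11.22 ± 0.045 in KO and 9.40 ± 0.043 in WT cells (SD, n = 3 each), a log2 difference of 1.82 ± 0.045 (SE) or 3.52-fold. Of all 19938 genes, 40 had a larger positive difference.

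Gimap6, known as a partner of the autophagy protein Gabarapl2, had the steadiest values of the genes with large differences. It reached 12.11, 12.13 and 12.14 on the KO arrays, against 10.69, 10.62 and 10.69 on the WT arrays. Neither genotype spanned more than 0.074, and the gap between the groups was 1.42. The difference was 1.46 ± 0.042 (SE), or 2.76-fold, and 70 genes had a larger one. On the array scale, Gimap6 stood at the 91st percentile of genes in KO cells (91.0 to 91.2) and at 73.1 to 74.4 in WT cells.

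Gimap7, whose human protein stimulates GTP hydrolysis in a related GIMAP protein, lies next to Gimap6. Its log2 signal was 8.48, 8.47 and 8.42 on the KO arrays, against 7.37, 7.51 and 7.39 on the WT arrays, and the groups were 0.91 apart at their nearest values. The difference was 1.03 ± 0.050 (SE), or 2.05-fold. Its WT signals lay within the range of olfactory receptor genes, used here as a measure of background, and those of Gimap4 and Gimap6 lay above it.

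Gimap1, Gimap5 and Gimap3 follow Gimap7 along the chromosome in this order. Gimap3, a membrane protein reported to bind BCL2 family members, gave 9.21, 9.38 and 9.28 in KO cells, against 8.70, 8.61 and 8.60 in WT cells. Its difference of 0.65 ± 0.054 (SE), or 1.57-fold, was intermediate, with the groups 0.51 apart. Gimap5, its close paralogue, gave 10.60, 10.60 and 10.53 in KO cells, against 10.34, 10.22 and 10.27 in WT cells. The difference of Gimap5 was 0.30 ± 0.048 (SE), or 1.23-fold, and the groups were 0.19 apart. The sequences of the probes were not used here, so how much of the Gimap5 or Gimap3 signal comes from the paralogue was not tested.

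Gimap1, which mice need to keep mature B and T cells, had one of the smaller differences. It gave 10.59, 10.50 and 10.60 on the KO arrays, against 10.20, 10.43 and 10.36 on the WT arrays, and the nearest values were 0.062 apart. The difference was 0.23 ± 0.063 (SE), or 1.17-fold. The call of Gimap1 was lost when KO replicate 1, KO replicate 3, WT replicate 1 or WT replicate 3 was left out, with differences of 0.17 to 0.24 in these settings.

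Gimap9 and Gimap8 form the other end of the cluster. Gimap9 gave 10.98, 11.02 and 11.10 in KO cells, against 10.81, 10.63 and 10.66 in WT cells, a difference of 0.33 ± 0.058 (SE) or 1.26-fold. Its groups were 0.17 apart. Gimap8, a larger family member with several GTPase domains, gave 9.43, 9.43 and 9.45 in KO cells, against 9.25, 9.40 and 9.20 in WT cells. The difference of Gimap8 was 0.15 ± 0.056 (SE), or 1.11-fold, and was not called. WT replicate 2 lay only 0.023 below the lowest KO array, and without it the difference was 0.21 and was called.

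Tmem176b and Tmem176a lie beyond Gimap3 and are transcribed away from each other. Tmem176b gave 9.37, 9.47 and 9.47 in KO cells, against 7.90, 8.07 and 8.13 in WT cells. The groups were 1.24 apart and the difference was 1.40 ± 0.064 (SE), or 2.64-fold. Tmem176a gave 8.73, 8.78 and 8.67 in KO cells, against 7.75, 7.79 and 7.82 in WT cells, with a difference of 0.94 ± 0.045 (SE) or 1.92-fold.

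The arrays carry no detection call in the values used here, so the signals of 1015 olfactory receptor genes, which are expressed mainly in olfactory tissue, were taken as a stand-in for background. The 95th percentile of these genes was 7.91 to 7.98 on the 6 arrays and their median 6.18 to 6.23. On the KO arrays all 10 genes lay above that 95th percentile. On the WT arrays 7 genes did so on all 3 arrays: Gimap1, Gimap3, Gimap4, Gimap5, Gimap6, Gimap8 and Gimap9. Tmem176b lay above it on 2 of 3 WT arrays, and Gimap7 and Tmem176a on 0 of 3. The folds of the last 3 genes therefore rest on WT signals near background and are less certain than the others. The olfactory receptor genes themselves had a median difference of 0.0022, with 20 called higher and 18 lower.

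The deviations of single arrays from their genotype mean had no common direction over the 10 genes. Averaged over the 10 genes, they ran from −0.015 on KO replicate 1 to 0.012 on WT replicate 2. On each array, 4 to 6 of the 10 genes lay above their genotype mean. Single genes varied more than these averages. The WT arrays spanned 0.23 for Gimap1, 0.23 for Tmem176b and 0.20 for Gimap8.

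Along chromosome 6 the 10 genes stand in the order Gimap8, Gimap9, Gimap4, Gimap6, Gimap7, Gimap1, Gimap5, Gimap3, Tmem176b and Tmem176a. On the plus strand are 7 of them, and Gimap6, Gimap3 and Tmem176b are on the minus strand. The differences were uneven along this order: 0.15 and 0.33 at Gimap8 and Gimap9, then 1.82, 1.46 and 1.03 at Gimap4, Gimap6 and Gimap7, then 0.23, 0.30 and 0.65 at Gimap1, Gimap5 and Gimap3, and 1.40 and 0.94 at the Tmem176 genes. Large differences thus fell in 2 runs of neighbours, separated by genes with smaller ones.

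Of the 10 reference genes on either side of the cluster, 11 were measured in all. Of these, 0 were called higher, against 9.66% of all genes. Of the 11, 4 fell in KO cells, against 10.2% of all genes called lower, and these 4 were among the 7 on the Gimap8 side. Gm5111 gave 8.65, 8.49 and 8.49 in KO cells, against 9.41, 9.39 and 9.39 in WT cells, and fell by 0.85 ± 0.051 (SE; limma adjusted p = 2.6e-06). Repin1, a zinc finger gene, fell by 0.45 ± 0.056 (SE; limma adjusted p = 0.00032). Atp6v0e2, a subunit of the proton pump of acidic organelles, fell by 0.43 ± 0.076 (SE; limma adjusted p = 0.0031), and Lrrc61 fell by 0.36 ± 0.064 (SE; limma adjusted p = 0.0035). The 2 measured genes nearest to Gimap8, AI854703 and Zfp775, differed by 0.12 and 0.087 and did not pass, nor did Rarres2 (−0.091), the gene of chemerin. On the Tmem176a side, 0 of 4 passed: Gm7932 differed by 0.0025, the amine oxidase gene Aoc1 by −0.15, and its relatives Doxl1 and Doxl2 by 0.14 and 0.067. The median difference of the 11 flanking genes was −0.091.

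**Figure D2:**
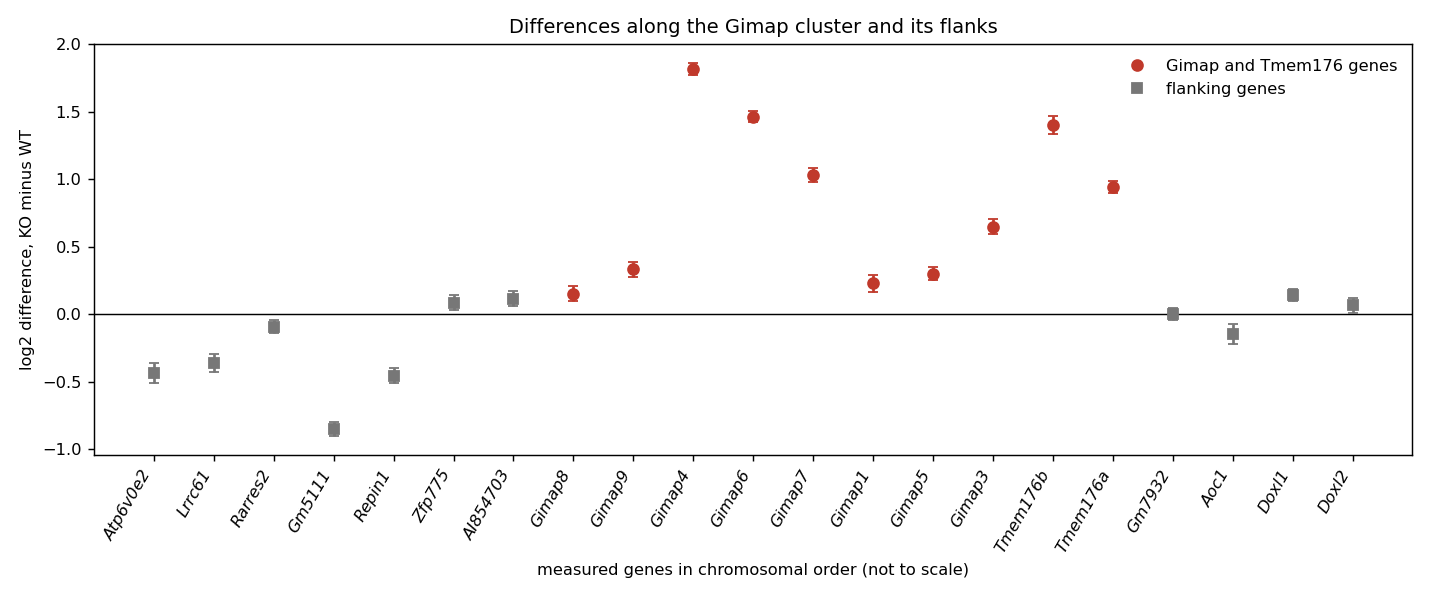
Log2 difference (KO minus WT, y axis, with limma standard errors) of the measured genes in their order along chromosome 6, with the 10 Gimap and Tmem176 genes as red circles and the 11 flanking genes as grey squares. All 10 red points lie above 0, with peaks at Gimap4 and Tmem176b, and the 4 flanking genes that passed lie below 0 on the Gimap8 side.

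Of 16 measured genes for proteins known to bind GIMAP proteins, and their relatives, 4 rose, 2 fell and 10 did not pass, with a median difference of 0.034. Of all genes, 9.66% were called higher and 10.2% lower. This list and those below were chosen with earlier results of these data known, so their shares are given for scale. Without WT replicate 3 only 1 fell, as Gsk3a lost its call (−0.17). Bcl2, a survival protein reported to bind mouse Gimap3 and Gimap5, gave 12.87, 12.88 and 12.87 in KO cells, against 12.40, 12.24 and 12.19 in WT cells. It rose by 0.60 ± 0.057 (SE; limma adjusted p = 6.2e-05). Bcl2l1, which encodes the related BCL-XL, fell by 0.23 ± 0.051 (SE; limma adjusted p = 0.011). Gabarapl2, the partner of Gimap6, was above its WT values on every KO array and rose by 0.24 ± 0.048 (SE; limma adjusted p = 0.0069). Calm3, one of the calmodulin genes, rose by 0.34 ± 0.048 (SE; limma adjusted p = 0.00078).

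Among other immune GTPases, those induced by interferon, 11 of 20 listed genes were measured. Of these 11, 5 were called higher and 1 lower, against 9.66% and 10.2% of all genes, with a median difference of 0.24. As the list was chosen with earlier results known, these shares are no test of it. Iigp1, Gbp8, Mx1 and Mx2 were at or below background on all 6 arrays, and Mx2 was the gene that fell (−0.23). Gbp9 rose most, with 9.52, 9.65 and 9.63 in KO cells, against 8.99, 9.06 and 9.09 in WT cells (difference 0.55 ± 0.051, SE; limma adjusted p = 4.9e-05). Gbp5 rose by 0.39, Gbp7 by 0.35 and Gbp3 by 0.35. These differences were smaller than those of 6 of the 10 cluster genes, Gimap3, Gimap4, Gimap6, Gimap7, Tmem176a and Tmem176b.

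In the MS4A family, membrane proteins to which the Tmem176 proteins are related, 5 of 16 members rose and 0 fell, against 9.66% and 10.2% of all genes, with a median difference of 0.099. This family too was chosen with earlier results known, so its shares are given for scale. Ms4a6b gave 8.98, 9.06 and 9.20 in KO cells, against 6.47, 6.36 and 6.34 in WT cells, and rose by 2.69 ± 0.063 (SE; limma adjusted p = 5.0e-09). Ms4a6c rose by 1.58 ± 0.16 (SE; limma adjusted p = 8.2e-05) and Ms4a4c by 1.13 ± 0.11 (SE; limma adjusted p = 6.7e-05). Ms4a1, the gene of the B cell surface protein CD20, rose by 0.85 ± 0.090 (SE; limma adjusted p = 0.00012). The WT signals of these 4 genes lay within the range of olfactory receptor genes, as did the KO signals of Ms4a1 and Ms4a4c and those of Ms4a6c on 2 of 3 arrays, so the sizes of their differences are uncertain. Of the 16 members, 11 were at or below background on all 6 arrays. Ms4a1, Ms4a4c and the other gene that rose, Ms4a4b (0.73), were among these 11.

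**Figure D3:**
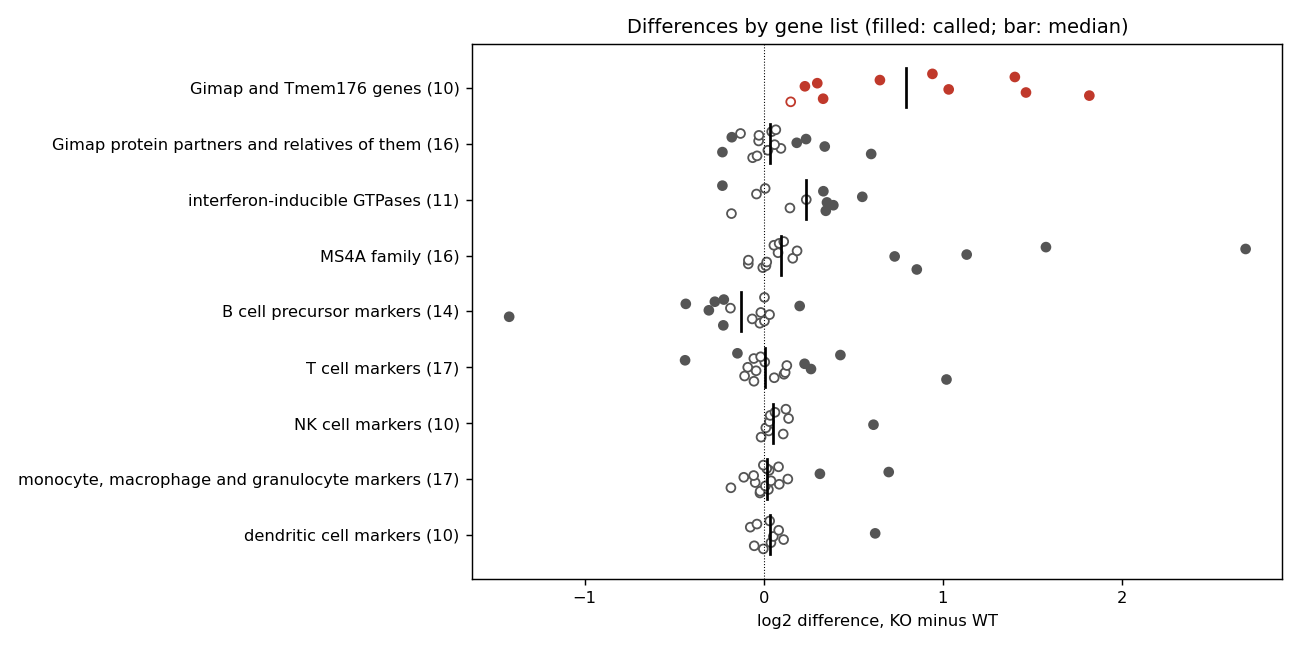
Log2 difference (KO minus WT, x axis) of each measured gene, by list (number of genes in parentheses), with filled points for genes called at a limma adjusted p under 0.05, open points for the others and a black bar at the median. The median of the 10 Gimap and Tmem176 genes is 0.80, and those of the other lists lie between −0.13 and 0.24.

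Gimap and Tmem176 genes are also expressed by other blood cells, so markers of these cells were read on the same arrays. In bulk RNA, a change in the share of cells of 1 type and a change in RNA per cell cannot be told apart. The background for these marker counts was 9.66% of all genes called higher and 10.2% called lower. Of 17 T cell markers, 4 rose and 2 fell, with a median difference of 0.0058, and the mean log2 signal over the list was 8.16 to 8.21 on the KO arrays and 8.09 to 8.11 on the WT arrays. Against the olfactory receptor genes, 9 of the 17 lay above background on all 6 arrays (Cd3e, Cd8a, Zap70, Lat, Thy1, Cd2, Cd5, Bcl11b and Ubash3a) and 8 on none (Cd3d, Cd3g, Cd4, Cd6, Cd8b1, Cd28, Gata3 and Themis). Cd8b1, one of these 8, was among those that rose (0.23). Cd2, an adhesion molecule of lymphocytes, rose by 1.02 and Ubash3a by 0.43, while the adaptor gene Lat fell by 0.44. The other marker that fell, Zap70, lost its call without KO replicate 2 or 3 or any 1 WT array (differences −0.12 to −0.17), with the replicate number as a block and with limma's trend and robust options. Cd5 rose by 0.26 (limma adjusted p from 3.4e-07 for Cd2 to 0.0036 for Cd5).

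For the marker counts that follow, the background was also 9.66% of all genes called higher and 10.2% called lower. Of 10 NK cell markers, 1 rose and 0 fell, with a list mean of 7.01 to 7.07 on the KO arrays and 6.91 to 6.92 on the WT arrays. The marker that rose was Klrd1 (0.61 ± 0.070, SE; limma adjusted p = 0.00019), and 9 of the 10, Klrd1 among them, were at or below background on all 6 arrays, so the size of its difference is uncertain. Of 17 monocyte, macrophage and granulocyte markers, 2 rose and 0 fell, with a list mean of 7.55 to 7.57 on the KO arrays and 7.48 to 7.52 on the WT arrays. These were the lysozyme genes Lyz2 (0.70) and Lyz1 (0.31; limma adjusted p = 1.9e-05 and 0.0049), which with Cd68 and Elane made up the 4 markers above background on all 6 arrays. The other 13, such as Csf1r, Itgam, Adgre1, Cd14, Mpo and S100a8, were at or below background on all 6. Of 10 dendritic cell markers, 1 rose and 0 fell, with a list mean of 7.83 to 7.90 on the KO arrays and 7.77 to 7.79 on the WT arrays. That marker was the cytokine receptor gene Flt3 (0.62), which with Zbtb46, Batf3 and Bst2 made up the 4 above background on all 6 arrays. Itgax, Clec9a, Xcr1, Cd209a and Clec10a, 5 of the 10, were at or below background on all 6. The part of other cell types in the differences of the Gimap and Tmem176 genes was not tested.

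Among the 14 B cell precursor markers, 1 rose and 6 fell, against 9.66% and 10.2% of all genes, with a median difference of −0.13 and a list mean of 12.53 to 12.54 on the KO arrays and 12.74 to 12.75 on the WT arrays. Dntt, which extends immunoglobulin gene joints with untemplated bases, fell by 1.42. Rag2, a subunit of the V(D)J recombinase, fell by 0.43. Rag1, the marker that rose (0.20), lost its call without KO replicate 2 or 3 or WT replicate 1 or 3 (differences 0.15 to 0.22). Il7r, the interleukin 7 receptor gene, fell by 0.31. Vpreb1, a chain of the surrogate light chain, fell by 0.27, and its call was lost without KO replicate 2 or KO replicate 3 (differences −0.26 and −0.26).

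The 5 genes whose profile over the 6 arrays was most like that of Gimap4 were sought by the Euclidean distance between log2 signals centred on each gene's mean. They were Cdh17, a cadherin (distance 0.18), Pagr1a, a protein of a histone methyltransferase complex (0.20), S100a11, a calcium-binding protein (0.21), Rnase12, of the ribonuclease A family (0.21), and Fetub, the gene of fetuin-B (0.23). Cdh17 gave 12.69, 12.81 and 12.69 in KO cells, against 11.03, 10.95 and 10.87 in WT cells. The differences of the 5 genes were 1.74 to 1.94. The WT signals of Rnase12 (6.94, 6.94 and 7.08) lay within the range of olfactory receptor genes, so the size of its difference is uncertain. With 2 groups of arrays, the distance reflects mainly a like difference between the genotypes.

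**Figure D4:**
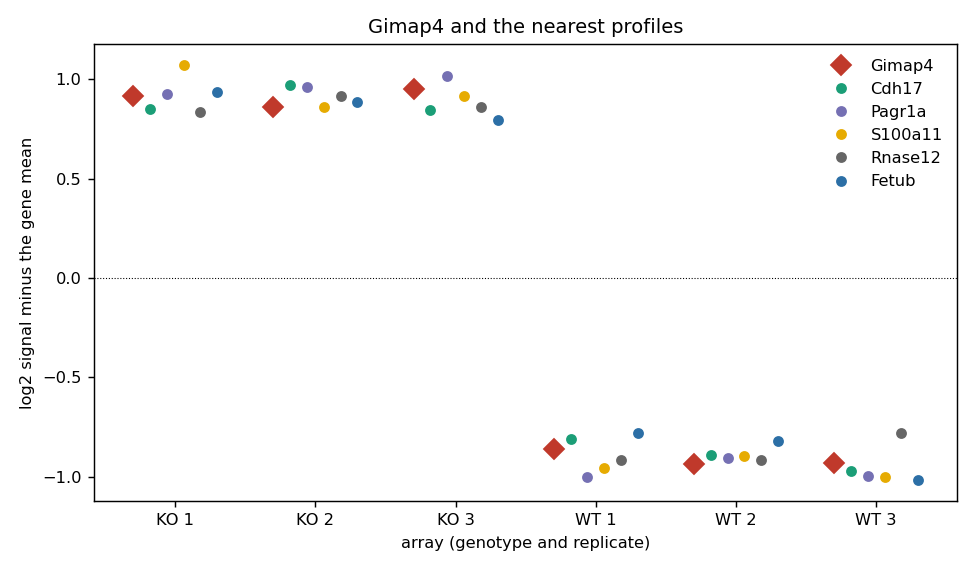
Log2 signal minus the gene's mean over the 6 arrays (y axis) for Gimap4 (red diamonds) and the 5 nearest genes (circles), with the KO arrays left and the WT arrays right on the x axis. On all KO arrays the 6 genes lie above their mean and on all WT arrays below it.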

How the data were processed

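Total RNA was measured on Affymetrix arrays, 3 of Dusp6 KO and 3 of Dusp6 WT cells, grouped and numbered by the sample titles. The deposited values are log2 signals per probe set, made with RMA and Partek 6.5 per the submitters' processing notes, with no further settings stated. The values themselves (3.23 to 14.83, array medians 8.38 to 8.42) gave the scale. The number of arrays limits the precision (median standard error of a difference 0.051).

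Of 35556 probe sets, the platform annotation gave 1 gene symbol to 21789, several to 1621 and none to 12146. The probe set with the highest mean over the 6 arrays stood for each of 999 genes with several, which left 19938 genes. They were fitted with limma 3.58.1 (R 4.3.3), using lmFit and eBayes with genotype as the single factor and Benjamini-Hochberg adjustment over all genes. The procedure was tested on simulated data.

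The 10 genes, the 8 lists and the motifs were chosen with earlier results of these data known. Named genes are the 10 members, Dusp6, up to 4 called genes per list with the largest differences, the measured genes among 10 on either side of the cluster and the 5 profiles nearest to Gimap4. Other markers, and Gsk3a, Cd8b1, Zap70, Rag1, Iigp1, Gbp8, Mx1, Mx2 and Ms4a4b, were named after their values were seen. Gene order came from the GRCm38.p6 RefSeq table, whose coordinates are not used for the arrays. The alternatives tried were other normalizations, filters on dim genes, probe set averaging, trend and robust options, a replicate block and leaving out each array. The olfactory receptor background was chosen after the values were seen.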

Additional observations from a re-analysis of the deposited data

How the results depend on the processing

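Under the 13 alternatives the number of genes called was 3003 to 4600 (3954 as reported), with 1491 to 2189 higher and 1512 to 2435 lower. Leaving out 1 array gave 3003 to 3689 calls. Each of the 10 cluster genes kept a positive difference in every setting that tested it, with 8 to 10 of them called. The filter at the median signal left 8 of the 10 to test, and 8 were called. As the genes were chosen with these differences known, their calls describe the dependence on processing and are no test of the genes. Gimap3, Gimap4, Gimap5, Gimap6, Gimap9 and Tmem176b were called in 13 of 13, with Gimap4 at 1.80 to 1.84 and Gimap6 at 1.44 to 1.48. Gimap7 and Tmem176a were called in the 12 that tested them, since a filter at the median signal removed both. Gimap1 was called in 8 of 13, and Gimap8 in 2 of 13 (the filter at the median signal, and without WT replicate 2). With the replicate number as a block there were 3445 calls, and Gimap1 was lost (difference 0.23). Same-numbered arrays did not deviate together (correlations 0.010, −0.12 and 0.053 over all genes), and not every array correlated best with its own number, so the numbers were not taken to pair the arrays. Counts of the lists that were small changed by a few genes: filters on dim genes left 1 of the 5 MS4A calls at the 25th percentile and 0 at the median, since they remove dim genes. NK cell markers called higher numbered 0 to 2, and monocyte, macrophage and granulocyte markers called lower 0 to 1. The cause of the other changes was not tested. Array signals near the level of olfactory receptor genes limit the sizes given for Gimap7, Tmem176a and Tmem176b.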
